A study of Saccharomyces cerevisiae with 8 samples.

Results

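Domain IV of yeast 25S rRNA, with its expansion segment 27 (ES27), was followed through the tethered micrococcal nuclease (MNase) data of precursors of the large ribosomal subunit (preLSUs). Its members were all nucleotides numbered 1879 to 2410 in the deposited tables, 532 of the 3396 nucleotides of 25S rRNA and of 10000 rows in each table. The domain was divided at ES27 (nucleotides 1954 to 2094) and at the 1-methyladenosine m1A2142. In the R64 assembly, the copy RDN25-1 lies on the reverse strand of chromosome XII between 451786 and 455181, where the domain spans 452772 to 453303, ES27 spans 453088 to 453228, and m1A2142 is at 453040. The whole region is a mature rRNA exon of a repeated gene, and the reads of its copies cannot be told apart.

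Domain IV forms much of the face with which the large subunit meets the small subunit. ES27 is a long, mobile insertion of eukaryotic rRNA that branches from this domain and can swing towards the exit of the peptide tunnel. The methyl group of m1A sits on the base-pairing face of the adenine, so that reverse transcriptase often stops there and the stop shows the modification without any nuclease. A nuclease cut leaves a new 5′ end of the rRNA, at which the cDNA also ends.

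There were 8 libraries, 1 per condition. Precursors were purified through Noc3-TAP (27SB-preLSUs, from 6 litres of culture) or through Lsg1-TAP (25S-preLSUs, from 2 litres of culture), each from strains of the S288c background that carried an MNase fusion of rpL27, rpL35 or rpL5, or that carried no MNase. In the fusion strains the chromosomal copies of the ribosomal protein gene were deleted (YPL131w for rpL5, YDR471w and YHR010w for rpL27, YDL191w and YDL136w for rpL35), and an HA-linked MNase fusion expressed from a plasmid under the RPS28 promoter was the only source of that protein, while the TAP tag was chromosomal. The nuclease was activated by calcium after purification. rpL5 binds 5S rRNA at the central protuberance, rpL35 sits beside the exit of the peptide tunnel, and rpL27 binds domain III of the rRNA towards the subunit interface. No condition was replicated and the number of fragments behind each value is not listed. All comparisons below therefore rest on thresholds and not on tests, and no interval is given.

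The measurement was the termination to coverage ratio (TCR), the percentage of cDNA fragments spanning a nucleotide that ended at it. A window TCR combines a nucleotide with its neighbour on either side, as the chance that a cDNA ended at any of the 3. The noise estimate is the highest TCR of simulated data sets near the nucleotide, and 27SB-preLSUs had a median of 1.40% over the domain and 25S-preLSUs one of 0.538%. Over the rest of 25S rRNA these medians were 1.05% and 0.955%. Between 5.83% and 8.83% of the domain's nucleotides had a TCR above the noise, against 4.82% to 8.45% in the rest of 25S rRNA. Along the 532 nucleotides, TCR values of libraries of the same purification had Spearman correlations of 0.48 to 0.65, and those of different purifications 0.26 to 0.42. These correlations are descriptions across nucleotides, which share coverage and noise and are not independent.

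**Figure D1:**
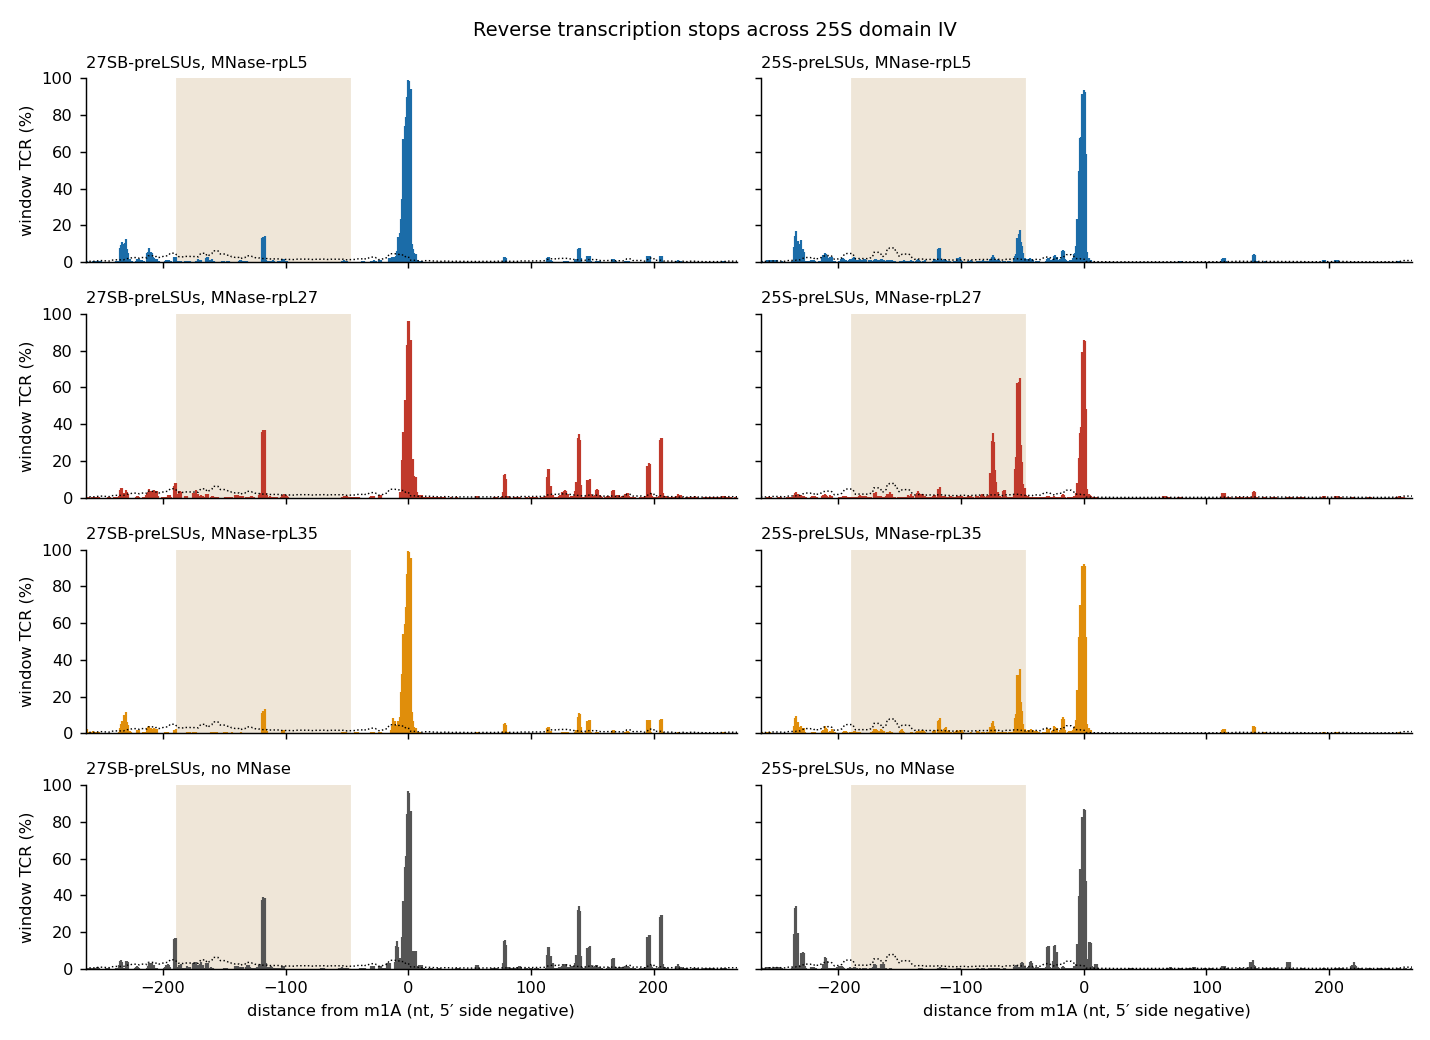
Window TCR (%, vertical axis) against the distance from m1A in nucleotides (horizontal axis) for the 8 libraries, with 27SB-preLSUs left and 25S-preLSUs right. Shading marks ES27 and the dotted line the noise estimate. All libraries peak at m1A, between 86.1% and 99.1%, and peaks within the 3′ part of ES27 are seen in the fusion libraries of 25S-preLSUs.

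Stops called as cleavage sites of a fusion lay in the 3′ part of ES27 in 25S-preLSUs, and at the same nucleotides the TCR of 27SB-preLSUs stayed below the noise. Weaker excesses over the library without MNase also lay elsewhere in the domain. A cleavage site was called where the window TCR was at least 15%, more than 5 times the noise and more than 5 times the library without MNase, more than 2 nucleotides from m1A. In 25S-preLSUs 4 sites were called in the domain, all in ES27: nucleotide 2089 with each of the 3 fusions, and nucleotide 2068 with MNase-rpL27 alone. In 27SB-preLSUs no site was called with any fusion. At 2068 and 2089 the rule may have been unable to call one, since only cDNAs that had crossed m1A could end there. TCR moves in steps that shrink as coverage grows. With MNase-rpL27 of 27SB-preLSUs the listed value was 3.125% at 2136 and 0.247% at 2089. Most cDNAs spanning 2089 had thus not crossed m1A, and the 15% minimum may have been out of reach. Over all of 25S rRNA the windows that met the rule were 0.326% for MNase-rpL5, 0.771% for MNase-rpL27 and 0.563% for MNase-rpL35 in 25S-preLSUs. In 27SB-preLSUs they were 0.0889%, 0.0593% and 0.237%. Of the 26 windows of MNase-rpL27 that met the rule in 25S-preLSUs, 10 lay in the domain, as did 2 of 11 for MNase-rpL5 and 4 of 19 for MNase-rpL35.

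Nucleotide 2089 (chromosome XII, 453093) lies 53 nucleotides 5′ of m1A and near the 3′ end of ES27. In 25S-preLSUs its window TCR was 15.6% in the rpL5 fusion, 63.2% in the rpL27 fusion, 31.8% in the rpL35 fusion and 0.935% without nuclease. The fusions thus ranked rpL27 over rpL35 over rpL5, with 1.99 times as much in MNase-rpL27 as in MNase-rpL35, and 2.04 times as much in MNase-rpL35 as in MNase-rpL5. The weakest, MNase-rpL5, was 8.43 times the noise of 1.85% and only just above the minimum. In 27SB-preLSUs the same window held 0.780%, 0.493%, 0.917% and 0.573% in the same order of libraries, all below the noise of 1.60%. There the fusions could not be told from the library without MNase.

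The cut at 2089 was spread over several neighbours. In the MNase-rpL27 library of 25S-preLSUs the TCR was 14.2% at 2087, 7.69% at 2088, 52.4% at 2089, 16.2% at 2090 and 13.2% at 2091. In the MNase-rpL35 library it was 7.01%, 2.61%, 24.7%, 7.03% and 7.42% at these nucleotides, and in the MNase-rpL5 library 1.59%, 1.56%, 10.2%, 4.43% and 3.96%. All 3 fusions had their highest value at 2089, and the next highest at 2090 or, with MNase-rpL35, at 2091. The windows that met the rule ran from 2086 to 2092 for MNase-rpL27, from 2088 to 2091 for MNase-rpL35, and covered 2089 and 2090 for MNase-rpL5. The library without MNase stayed at or below 0.943% at 2087 to 2091 and reached 2.44% at 2092.

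Nucleotide 2068 (chromosome XII, 453114) lies 21 nucleotides 5′ of 2089. Its window TCR in 25S-preLSUs was 3.66% in the rpL5 fusion, 35.02% in the rpL27 fusion, 6.91% in the rpL35 fusion and 0.372% without nuclease. The MNase-rpL27 value was 5.07 times that of MNase-rpL35 and 9.57 times that of MNase-rpL5, a wider gap than at 2089. With MNase-rpL27 the TCR was 12.3% at 2067, 20.2% at 2068, 7.17% at 2069 and 5.70% at 2070. MNase-rpL5 and MNase-rpL35 exceeded the noise of 1.52% and the library without MNase here, but not the minimum of 15%. In 27SB-preLSUs all 4 libraries were listed at 0 from 2065 to 2071.

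**Figure D2:**
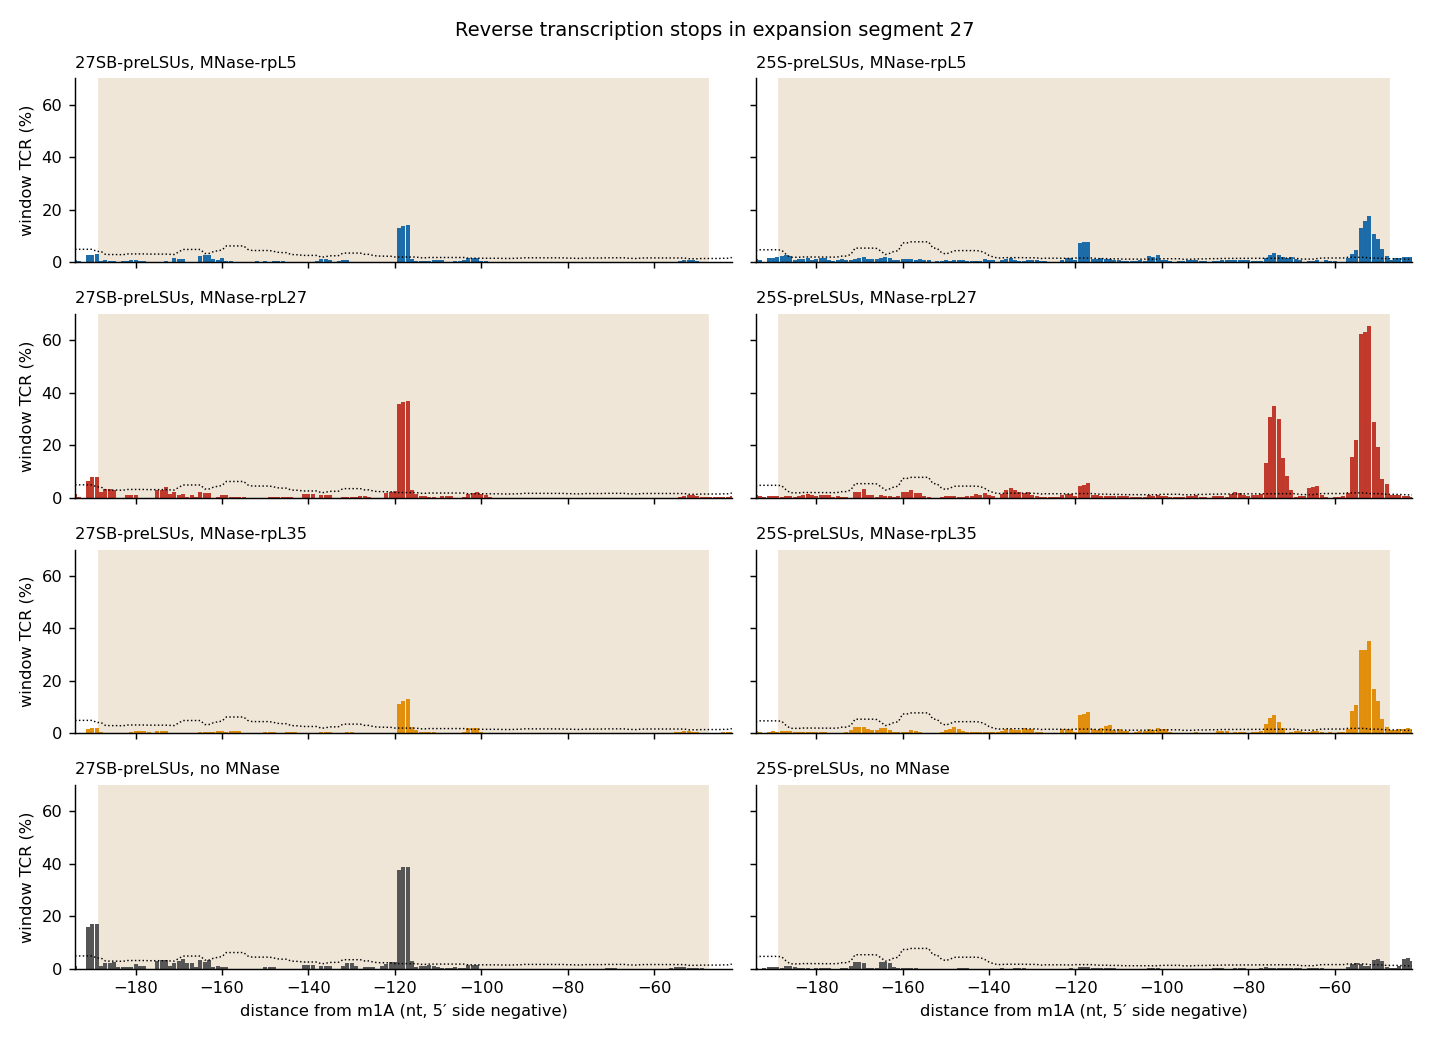
Window TCR (%) across ES27 (shaded) against the distance from m1A in nucleotides, for the 4 libraries of 27SB-preLSUs (left) and of 25S-preLSUs (right), with the noise estimate dotted. The sites 53 and 74 nucleotides 5′ of m1A appear only in the right column, at 63.2% and 35.02% in the rpL27 fusion, while the peak about 118 nucleotides 5′ of m1A is tallest at left in MNase-rpL27 and no MNase.

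A weaker rule, added after the values had been seen, counted windows more than 2 times the library without MNase with a difference above the noise. In 25S-preLSUs it took 39 windows of the domain for MNase-rpL5, 37 for MNase-rpL27 and 35 for MNase-rpL35, of which 16, 28 and 27 lay in ES27. These are 7.33%, 6.95% and 6.58% of the domain, beside 4.59%, 4.21% and 5.71% of all 25S rRNA. Windows overlap, so that 1 cut counts several times. In 27SB-preLSUs 10, 13 and 10 windows of the domain met this rule and none of them lay in ES27, beside 2.27%, 1.80% and 2.47% of all 25S rRNA. From 2068 to the end of ES27 the excess was limited by the crossing of m1A, as the called sites were. For 15 windows of the domain all 3 fusions met the rule in 25S-preLSUs, 13 of them in ES27, beside 60 such windows in all of 25S rRNA. In 27SB-preLSUs there were 2 such windows in the domain, none of them in ES27, beside 18 in all of 25S rRNA.

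Besides the called sites, ES27 of 25S-preLSUs held smaller excesses. The window at 2025 held 7.78% in the rpL5 fusion, 5.66% in the rpL27 fusion, 8.17% in the rpL35 fusion and 0.828% without nuclease. MNase-rpL27 reached 4.28% in the window at 2078 (0.295% without nuclease), and 3.81% at 2007 (0.0760% without nuclease). At 2041, MNase-rpL5 held 2.68% and MNase-rpL35 2.03%, beside 0.224% without nuclease. Between ES27 and m1A, the window at 2125 held 6.74% in the rpL5 fusion and 8.96% in the rpL35 fusion, but 1.77% in the rpL27 fusion and 1.39% without nuclease. MNase-rpL27 was thus lowest among the fusions, whereas it was highest at 2068 and 2089, and MNase-rpL35 was above MNase-rpL5 at all 3 nucleotides. In 27SB-preLSUs the window at 2125 was listed at 0 with the 3 fusions and at 3.0% without nuclease, beside a noise of 2.38%. Only cDNAs that had passed m1A could end there, and these were few in 27SB-preLSUs.

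On the 5′ side of ES27 the nucleotides near 1911 carried a stop that was above the library without MNase in both precursors with MNase-rpL5, and in 27SB-preLSUs also with MNase-rpL35 and, less, with MNase-rpL27, below the 15% minimum. In 27SB-preLSUs the window at 1911 (chromosome XII, 453271) held 10.6% in the rpL5 fusion, 2.50% in the rpL27 fusion, 10.1% in the rpL35 fusion and 0.620% without nuclease. In 25S-preLSUs it held 9.0%, 1.44%, 2.19% and 1.85%. MNase-rpL5 was thus near 10% in both precursors, whereas MNase-rpL35 fell by 7.91 percentage points from 27SB-preLSUs to 25S-preLSUs. A few nucleotides further 5′, at 1908, the library without MNase itself held most among the 25S-preLSU libraries, 33.9%, beside 16.8% in the rpL5 fusion, 2.87% in the rpL27 fusion and 9.44% in the rpL35 fusion. In 27SB-preLSUs the window at 1908 held 9.40%, 5.47%, 4.90% and 4.55%.

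The library without MNase of 25S-preLSUs stood apart at further nucleotides. Its TCR was 11.3% at 2113, 8.30% at 2119 and 12.8% at 2147. The fusion libraries of the same precursor reached at most 2.26%, 2.34% and 1.43% there. These stops arose without a nuclease, and at these nucleotides the library is no low baseline for the fusions. At 2068 and 2089 it was below the noise estimate.

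Termination around m1A2142 differed in position between the precursors. At 2143, the nucleotide copied before the methylated base, the TCR in 27SB-preLSUs was 93.4% in the rpL5 fusion, 83.0% in the rpL27 fusion, 94.8% in the rpL35 fusion and 84.9% without nuclease. In 25S-preLSUs it was 56.3%, 45.8%, 49.8% and 45.4%, so that the libraries of the 2 purifications did not overlap. At 2142 itself the values were 77.1%, 74.6%, 71.9% and 70.2% for 27SB-preLSUs, as against 82.9%, 71.4%, 81.3% and 73.9% for 25S-preLSUs, and here the ranges overlapped. The window at m1A held 96.1% to 99.1% in 27SB-preLSUs and 86.1% to 94.0% in 25S-preLSUs.

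The same values can be followed as a cDNA meets them, from 2147 down to 2137. Of the cDNAs entering these 11 nucleotides, 61.0% to 81.8% ended at 2143 in 27SB-preLSUs and 37.4% to 52.7% in 25S-preLSUs. At m1A itself 3.21% to 9.35% of them ended in 27SB-preLSUs and 33.3% to 38.1% in 25S-preLSUs. The shares of the 2 precursors overlapped at neither nucleotide. A cDNA of 25S-preLSUs thus ended at m1A more often, and at the nucleotide 3′ of it less often, than a cDNA of 27SB-preLSUs. These shares treat the TCR values as steps of 1 population of cDNAs.

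The part of the cDNAs that passed all 11 nucleotides was 0.191% in the rpL5 fusion, 1.34% in the rpL27 fusion, 0.270% in the rpL35 fusion and 1.26% without nuclease in 27SB-preLSUs. In 25S-preLSUs it was 1.73%, 8.32%, 2.06% and 4.78%. Every 25S-preLSU library was above every 27SB-preLSU library. MNase-rpL27 and no MNase were the highest pair in both precursors. The 5 nucleotides 5′ of m1A, 2137 to 2141, carried further stops. The highest of them was 52.6% at 2139 with MNase-rpL5 in 27SB-preLSUs, and MNase-rpL27 of 27SB-preLSUs was listed at 0 at 2137. In that MNase-rpL27 library the TCR was 3.125% at 2136 and 0 at 2135. Values thus moved in coarse steps here, where few cDNAs had passed m1A.

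**Figure D3:**
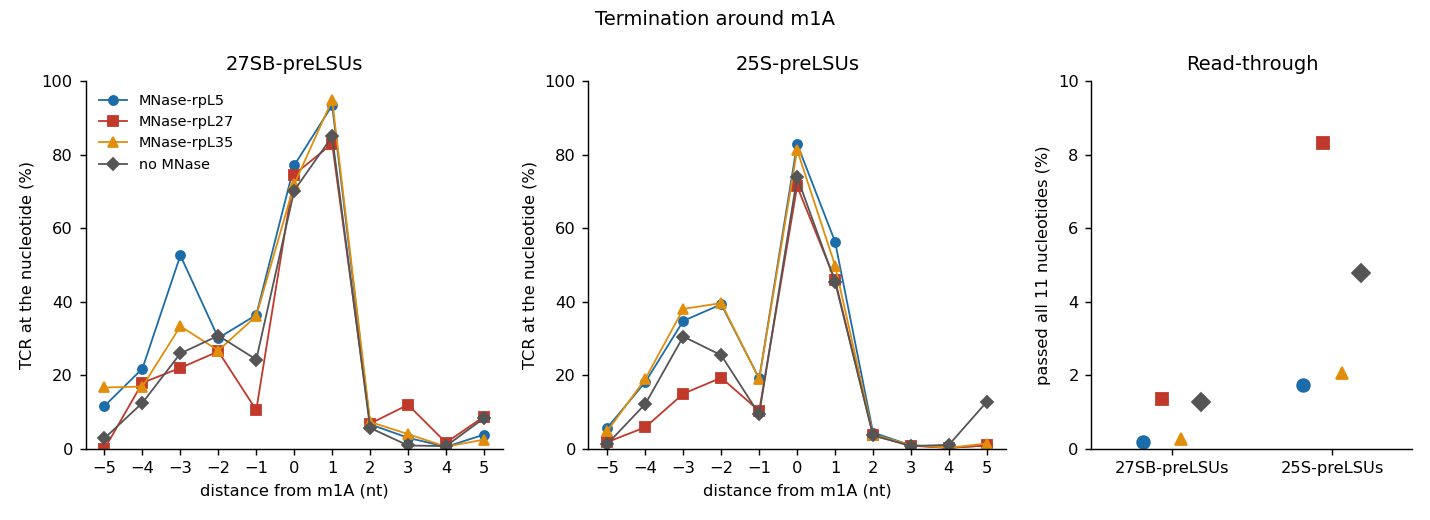
TCR (%) at each nucleotide from 5 before to 5 after m1A in 27SB-preLSUs (left) and 25S-preLSUs (middle), and the percentage of cDNAs passing all 11 nucleotides (right), 1 symbol per library. The stop 1 nucleotide 3′ of m1A is at 83.0% to 94.8% at left and 45.4% to 56.3% in the middle, and read-through is highest, at 8.32%, in MNase-rpL27 of 25S-preLSUs.

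Stops in the 3′ part of ES27 were read from cDNAs that had passed m1A. Deposited fragments had an insert of at least 75 nucleotides, so a cDNA that ended anywhere from 2068 to 2141 was primed at or beyond m1A and included it. A cDNA primed 5′ of m1A could not end in this stretch, but it counted in the coverage of the nucleotides it spanned there. A TCR in this stretch was therefore bounded by the share of spanning cDNAs that had crossed m1A. That share is not listed and can differ between the precursors, so their values here are not like measures. Both called sites lie in this stretch, 2068 at its first nucleotide. From 2068 to 2139, 65.3% to 81.9% of the nucleotides were listed at 0 in the 27SB-preLSU libraries and 9.72% to 16.7% in the 25S-preLSU libraries. The part of the lower read-through at m1A in the missing stops of 27SB-preLSUs at 2068 and 2089 was not tested. Within 25S-preLSUs the 3 fusions had the same order at 2089 and 2068 as in read-through, with MNase-rpL27 first, MNase-rpL35 next and MNase-rpL5 last, and the part of read-through in this order was not tested either.

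In 27SB-preLSUs nucleotides listed at 0 were most frequent in ES27 and between ES27 and m1A. In 27SB-preLSUs 67.4% to 73.8% of its 141 nucleotides were listed at 0 in each library, and in 25S-preLSUs 26.2% to 55.3%. Counting all values below 0.1%, the 25S-preLSU library without MNase rose to 77.3%, above every 27SB-preLSU library, and the other 7 kept their shares. Between ES27 and m1A 53.3% to 80.0% were at 0 in 27SB-preLSUs, as against 4.44% to 8.89% for 25S-preLSUs. In the rest of 25S rRNA the share was 29.4% to 38.6% and 23.4% to 33.8%. All 4 libraries of 27SB-preLSUs were at 0 together at 64 nucleotides of ES27 (45.4%) and at 90 of the domain (16.9%), beside 17.0% of all 25S rRNA. In 25S-preLSUs this was so at 15 nucleotides of ES27 (10.6%) and 22 of the domain (4.14%), beside 9.86% of all 25S rRNA. The domain as a whole therefore held about the same share of such nucleotides as 25S rRNA in 27SB-preLSUs, and ES27 a larger share. In 25S-preLSUs the share in ES27 was close to that of all 25S rRNA.

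Within the domain, runs of at least 5 nucleotides at 0 in all 4 libraries occurred 4 times in 27SB-preLSUs and not in 25S-preLSUs. In all of 25S rRNA the longest such run had 141 nucleotides in 27SB-preLSUs and 124 in 25S-preLSUs, so the runs of the domain were short. The longest of them ran over 14 nucleotides from 2073 to 2086 (chromosome XII, 453096 to 453109), and the others covered 2044 to 2050, 2052 to 2063 and 2065 to 2071. In 25S-preLSUs the highest TCR within these runs was 20.2%, in the last of them, at the MNase-rpL27 site 2068. In the runs that end at 2050 and 2063 no 25S-preLSU library exceeded 1.11%. The median noise within the runs was 1.49% to 1.64%, so that a stop of this size would not have been told from noise there.

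**Figure D4:**
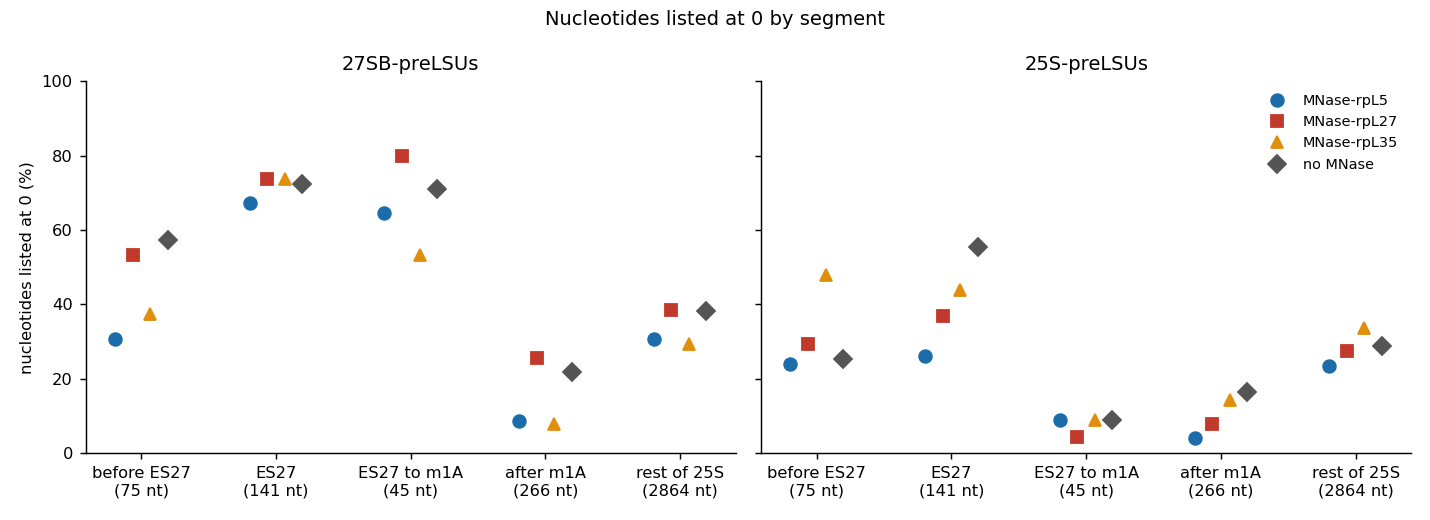
Percentage of nucleotides listed at 0 (vertical axis) in 4 segments of domain IV and in the rest of 25S rRNA, for 27SB-preLSUs (left) and 25S-preLSUs (right), 1 symbol per library. In ES27 the 27SB-preLSU libraries lie at 67.4% to 73.8% and the 25S-preLSU libraries at 26.2% to 55.3%, and on the 3′ side of m1A all 8 lie at or below 25.6%.

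A stop in ES27 of 27SB-preLSUs that needed no nuclease was found at 2024 (chromosome XII, 453158). In 27SB-preLSUs the TCR at 2024 was 12.9% in the rpL5 fusion, 35.2% in the rpL27 fusion, 11.2% in the rpL35 fusion and 36.7% without nuclease. In 25S-preLSUs it was 7.09%, 4.53%, 6.65% and 0.604%, beside a noise of 1.59%, so that only the fusions exceeded the noise. All 4 libraries of 27SB-preLSUs were above all 4 of 25S-preLSUs, and the library without MNase was highest in the former and lowest in the latter. At 1952, just 5′ of ES27, the library without MNase of 27SB-preLSUs also stopped most, at 16.1%, beside 6.23% in the rpL27 fusion and at most 2.61% in the remaining libraries. The nucleotide 1952 was chosen after its values had been seen.

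On the 3′ side of m1A, where coverage does not depend on crossing it, no fusion gave a called site in either precursor, and stops were mostly a feature of 27SB-preLSUs. The chance of ending anywhere from 2145 to 2410 was 39.1% in the rpL5 fusion, 89.2% in the rpL27 fusion, 49.8% in the rpL35 fusion and 86.3% without nuclease in 27SB-preLSUs. In 25S-preLSUs it was 17.6%, 17.3%, 16.8% and 37.7%. Every 27SB-preLSU library was above every 25S-preLSU library, and within 27SB-preLSUs MNase-rpL27 and no MNase were far above MNase-rpL5 and MNase-rpL35. MNase-rpL27 and no MNase also had more nucleotides at 0 here, 25.6% and 21.8%, beside 8.65% with MNase-rpL5 and 7.89% with MNase-rpL35. Libraries can differ in the depth of unique fragments, and the part of depth in this pairing was not tested. Likeness between libraries was higher here than in ES27. Spearman correlations within a purification were 0.68 to 0.89 over these 266 nucleotides and 0.25 to 0.56 over ES27.

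The highest of these stops were at 2281, 2338 and 2348. At 2348, which is base 452834 of the chromosome, 27SB-preLSUs had a TCR of 3.33% in the rpL5 fusion, 30.8% in the rpL27 fusion, 7.22% in the rpL35 fusion and 27.6% without nuclease, and in 25S-preLSUs 0.971%, 0.740%, 0.690% and 0.449%. At 2281 (base 452901) it was 5.49%, 26.4%, 7.44% and 26.2% for 27SB-preLSUs, as against 3.44%, 2.77%, 3.21% and 1.38% for 25S-preLSUs. At 2338 it was 2.99%, 16.3%, 6.73% and 16.8% against at most 0.890% in 25S-preLSUs. At all 3 nucleotides the libraries of the precursors did not overlap, and MNase-rpL27 and no MNase of 27SB-preLSUs were the highest pair.

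A rule added after the values had been seen was applied only 3′ of m1A, so it has no share over 25S rRNA. By this rule, 12 of the 266 nucleotides from 2145 to 2410 had a TCR above 5% in at least 1 library. At 11 of them MNase-rpL27 and no MNase were the highest pair of 27SB-preLSUs, the exception being 2145, where MNase-rpL27 held 12% and no MNase 0.895%. As background, box C/D RNAs guide 2′-O-methylation of yeast 25S rRNA, and reverse transcriptase can pause directly 3′ of such a nucleotide. Of the 12 stops, 7 lay directly 3′ of nucleotides known to be methylated in this way, namely 2220, 2256, 2280, 2281, 2288, 2337 and 2347. How often other nucleotides of this stretch lie directly 3′ of such a methylation was not counted. Methylations without a stop above 5% were not listed either, so the 7 of 12 have no share to be read against. The part of this methylation in the stops was not tested. At the m5C 2278, which the tables mark, no library exceeded 0.785%. Directly 3′ of it, at 2279, the TCR reached 2.89% without nuclease and 2.87% in the rpL27 fusion of 27SB-preLSUs, and 2.76% without nuclease in 25S-preLSUs.

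**Figure D5:**
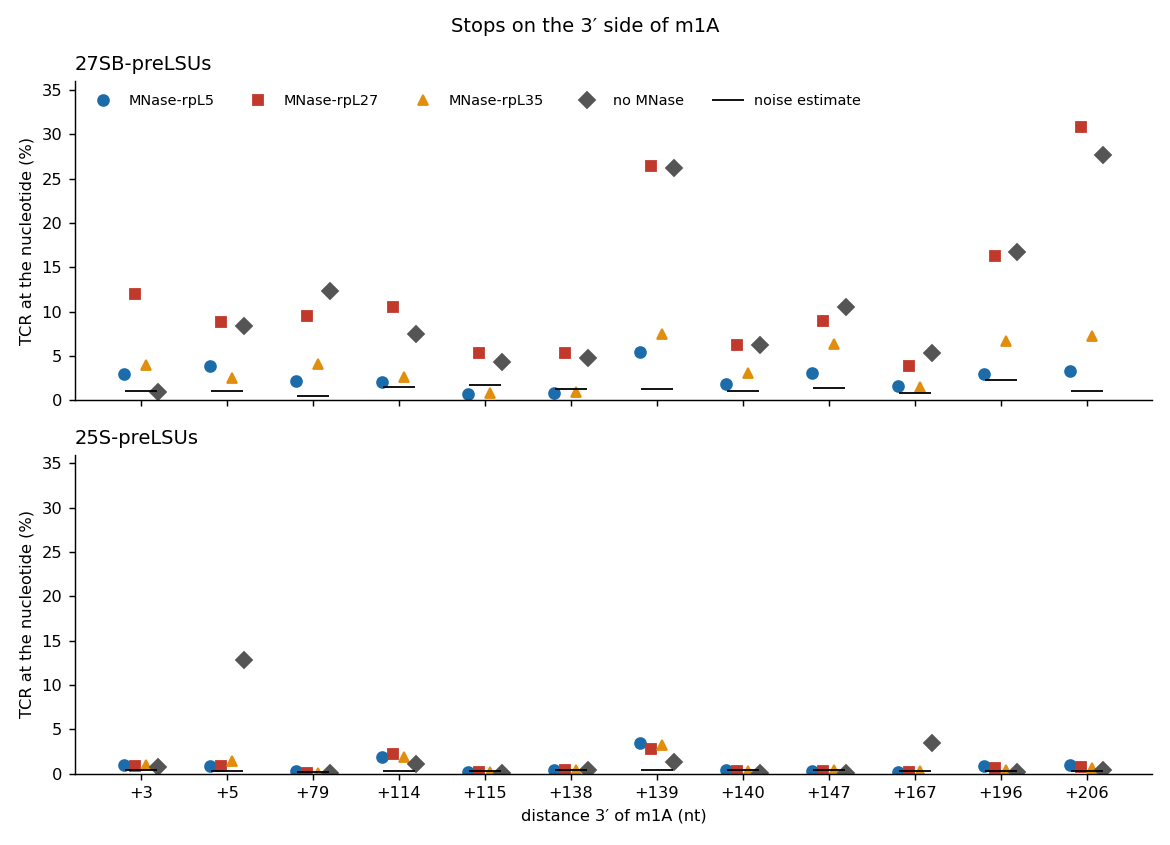
TCR (%) at the 12 nucleotides 3′ of m1A that exceeded 5% in at least 1 library, placed by their distance from m1A, in 27SB-preLSUs (top) and 25S-preLSUs (bottom), with a dash for the noise estimate. Squares (MNase-rpL27) and diamonds (no MNase) are the highest pair at top at every distance but +3, and at bottom only the diamond at +5 exceeds 5%.

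The precursors were compared for each fusion where the window TCR differed by more than 2 times and by more than both noise estimates. For MNase-rpL5, 28 windows of the domain were higher in 25S-preLSUs and 25 in 27SB-preLSUs, beside 2.33% and 4.27% of all 25S rRNA. For MNase-rpL27 these numbers were 27 and 85, beside 3.89% and 10.8%. For MNase-rpL35 they were 27 and 38, beside 7.33% and 3.92%. With no MNase they were 28 and 54, beside 8.60% and 6.89%, which is the background of differences without nuclease. As shares of the domain, 5.26%, 5.08%, 5.08% and 5.26% of windows were higher in 25S-preLSUs, and 4.70%, 16.0%, 7.14% and 10.2% higher in 27SB-preLSUs.

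The directions separated along the domain. Of the windows higher in 25S-preLSUs, ES27 held 15 of 28 for MNase-rpL5, 24 of 27 for MNase-rpL27 and 17 of 27 for MNase-rpL35, but 3 of 28 with no MNase. Of the windows higher in 27SB-preLSUs, the 3′ side of m1A held 22 of 25, 74 of 85, 26 of 38 and 37 of 54 in the same order of libraries. ES27 has 141 and the 3′ side 266 of the 532 nucleotides. Median noise was 1.98% (27SB-preLSUs) and 1.59% (25S-preLSUs) in ES27, but 0.617% and 0.239% 3′ of m1A. Larger differences were thus needed in ES27. From 2068 to 2141 the values of the precursors are not like measures. Without nucleotides listed at 0 in 4 libraries, the 27 windows of MNase-rpL27 became 11. The largest gains in 25S-preLSUs were at 2090 for each fusion, by 64.4 percentage points for the rpL27 fusion, 34.2 for the rpL35 fusion and 16.7 for the rpL5 fusion. With no MNase the largest was at 1908, by 29.4 percentage points. The largest values in the other direction were at 2024, where the window fell by 31.6 points with MNase-rpL27 and by 38.3 points with no MNase from 27SB-preLSUs to 25S-preLSUs. For MNase-rpL5 and MNase-rpL35 they were at 2136, 6 nucleotides 5′ of m1A, where the window fell by 14.6 and 15.0 points. These 2 values rest on few cDNAs. In 27SB-preLSUs only 0.191% and 0.270% of the cDNAs of these libraries passed 2137 to 2147, and the noise at 2136 was 3.93%.

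Taking all libraries of a purification together, a comparison added after the values had been seen, every 25S-preLSU library exceeded every 27SB-preLSU library in 45 windows of the domain (8.46%, beside 4.62% of all 25S rRNA). The opposite held in 119 windows (22.4%, beside 11.8%). This comparison set no noise minimum, so windows below the noise counted. At 2055 the 25S-preLSU windows held 0.224% to 0.993% and all 27SB-preLSU windows 0, beside a noise of 1.35% and 1.67%. Where all 27SB-preLSU libraries were at 0, any values above 0 in 25S-preLSUs met it. ES27, with 141 of the 532 nucleotides, held 33 of the 45 windows. The 3′ side of m1A, with 266 nucleotides, held 110 of the 119. The library without MNase took part in this comparison, so these windows also hold stops that owe nothing to a fusion. The 2 purifications differed in bait, culture volume and precursor together, and these cannot be told apart.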

How the data were processed

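RNA of 8 calcium-treated affinity purifications (2 precursors, 3 MNase fusions or no MNase, 1 library each) was copied with random primers, and both cDNA ends were sequenced. The authors mapped reads with Bowtie2 (version not given in the sources used here; builds R64 and sacCer3 in the submitters' processing notes), used a fixed number of mapped reads per library with inserts of 75 to 750 nucleotides, and estimated unique fragments from random barcodes. The deposited values are TCR as a fraction from 0 to 1, with a noise estimate per purification, also a fraction, from simulated data sets of observed starts and lengths. Read numbers were fixed before unique fragments were estimated, so the depth of unique fragments can differ between libraries. Depth at a nucleotide is not listed. The TCR at 2171 of 27SB-preLSUs was 0.00494% (rpL5 fusion), 0.0392% (rpL27 fusion) and 0.00600% (rpL35 fusion). Without nuclease it was 0 there and 0.0354% at 2172. Steps of TCR shrink as coverage grows, so a 0 or a low value need not rest on like depth in each library. Uneven priming and the insert minimum lower coverage 5′ of a strong stop, as at m1A.

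Fractions were converted to percent. Windows of 3 nucleotides were computed as 1 minus the product of 1 minus TCR. Windows that met the rule no more than 2 nucleotides apart made 1 site, numbered by its highest TCR. The folds over noise and no MNase and the distance from m1A in the site rule followed the study, and the minimum of 15% was set here. Named nucleotides were m1A, every called site, the 5 highest other windows of each library, shared runs of at least 5 zeros and the 3 largest precursor differences each way; others are marked as chosen after their values were seen. Members, rules and lists were chosen with earlier results of these data known. Coordinates were computed from the RefSeq gene table of assembly R64, whose RDN25-1 has the 3396 nucleotides of the table. The site rule was tested on simulated data. Alternatives were the stop nucleotide alone, wider windows, other minima, folds and noise, and exclusion of zeros. Python 3.11.15, numpy 2.4.6, pandas 2.3.3 and matplotlib 3.10.9 were used.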

Additional observations from a re-analysis of the deposited data

Results flagged for a closer look

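In 2 windows of the domain, and in no other window of 25S rRNA, all 3 fusions lay above the library without MNase in 1 precursor and below it in the other, each by more than the noise estimate. This difference between the precursors was not tested, since each condition has 1 library. At 2024, in ES27, the fusions averaged 5.95 percentage points above the library without MNase in 25S-preLSUs and 17.9 points below it in 27SB-preLSUs (-17.9), a difference of 23.9 points. At 1909 they averaged 12.9 points below it in 25S-preLSUs (-12.9) and 4.01 points above it in 27SB-preLSUs, a difference of -16.9 points. In both windows the library without MNase moved most between the precursors, from 38.9% in 27SB-preLSUs to 0.604% in 25S-preLSUs at 2024 and from 3.52% to 19.5% at 1909.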

How the results depend on the processing

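The 4 sites of 25S-preLSUs stayed between 3 and 4 in number under all 9 alternatives, and the site lost with the stop nucleotide alone or a minimum of 20% was that of MNase-rpL5 at 2089. In 27SB-preLSUs the count of 0 sites became 1 with 2 nucleotides on either side of the window (at 1910), 2 with a minimum of 10% (at 1911 in MNase-rpL5 and MNase-rpL35) and 2 with 3 in place of 5 times noise and no MNase (at 2136 in the same libraries), none of them in ES27. The windows higher in 25S-preLSUs, 82 summed over the fusions, became 35 with the stop nucleotide alone, 130 with 2 nucleotides on either side, 49 above 2 times the noise and 42 without nucleotides listed at 0 in 4 libraries. Those higher in 27SB-preLSUs, 148, became 54, 243 and 93 under the first 3 of these, and 147 under the last. Of single values, 16 of the m1A windows moved by more than 1 SD over the 4 libraries and 8 did not, 13 windows at called sites moved by more than the noise and 35 did not, and 5 segment values moved and 35 did not. Counting values below 0.1% in place of 0 raised the share over the domain in all 8 libraries, from 13.2% to 46.6% up to 57.3% to 69.0%, and the precursors, whose ranges at 0 were apart, then overlapped. Values with the stop nucleotide alone were lower, and those with wider windows higher, except where all were 0. Overlapping windows set these counts by construction. The excess over no MNase, the comparison of 4 with 4 libraries and the 5% rule 3′ of m1A were chosen after seeing the data. No replicate could be left out, and no paired analysis was possible because each condition has 1 library. No value separates fewer cuts in ES27 of 27SB-preLSUs from fewer cDNAs crossing m1A.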
